A study of Homo sapiens with 17 samples.

Results

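The 10 genes described here belong to the fibroblast growth factor (FGF) pathway and its feedback loop through the kinase ERK. They are the ligand gene FGF2, the receptor genes FGFR1 and FGFR2, the inhibitor genes SPRY1, SPRY2, SPRY4, SPRED2 and DUSP6, and the transcription factor genes ETV4 and ETV5. They were named as a list, out of 20037 protein-coding genes of the RefSeq table, and for each of them all peak summits from 20 kb before to 20 kb after the gene were collected in 17 libraries. FGF2 is added to the medium of most human pluripotent cultures, because FGF receptors signal through RAS, RAF and MEK to ERK and this signal helps to keep the cells undifferentiated. ERK activity in turn induces genes that restrain it. Sprouty and SPRED proteins act on the pathway between receptor and RAF, DUSP6 removes phosphates from ERK, and ETV4 and ETV5 are ETS-family factors whose transcription follows FGF signalling.

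The libraries were made by CUT&Tag, in which an antibody on chromatin brings a transposase that cuts and tags the DNA next to it, from H1 cells, an established human embryonic stem cell line grown in mTeSR1 medium on Matrigel. H3K4me1, a histone mark of enhancers, and H3K27ac, a mark of active enhancers and promoters, each had 4 libraries of cells carrying a short hairpin RNA against HNRNPU (2 of shHNRNPU#1 and 2 of shHNRNPU#2) and 2 of cells carrying shLUC, the control hairpin. HNRNPU, a nuclear RNA-binding protein, was profiled in 2 libraries of cells with no hairpin, and the antibody called POLIIS2P in the titles had 1 shHNRNPU#1 library and 2 shLUC libraries. Cells with a hairpin had received it by virus and were selected with puromycin. No list measures HNRNPU itself after the knockdown. The protocol's list of antibodies names H3K27ac and HNRNPU but not H3K4me1 or POLIIS2P, so those identities rest on the titles. For the shLUC libraries taken as H3K4me1 the identity rests on file names, which differ from the titles.

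Each deposited list gives the summit of every peak with a score. The lists held 40487 to 214333 summits for the histone marks, 34649 and 35526 for HNRNPU and 79949 to 87456 for POLIIS2P. Read depth is unknown, so a summit's score was expressed as its percentile within its own list, where 100 is the strongest summit, and a gene's level is the highest percentile in its window. Summits of an antibody within 250 bp were joined into sites, and the strongest site of a gene is the one of highest mean percentile over the libraries, which need not be the strongest in each. In the bulk cultures profiled here, a mark on fewer cells and less of the mark per cell cannot be told apart. All 9 pluripotency marker genes found in the gene table, of the 10 chosen, had a summit in every H3K27ac and every POLIIS2P library. Of 12 marker genes of other cell types, 2 had an H3K27ac summit and 4 a POLIIS2P summit in every library, with mean levels of up to 68.2 (MYH6) and 92.8 (APOA2), and 4 had no H3K27ac summit and 7 no POLIIS2P summit in any library.

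The antibody of 4 libraries, the shLUC ones for the histone marks, is not the same in the sample title and in the name of the deposited file, which give H3K27ac and H3K4me1 the other way round. The file names were followed, and the counts of separated genes and of lost or gained sites under the titles are printed beside the main ones. By file name, the shLUC lists held 62449 and 90914 summits for H3K27ac, where the shHNRNPU lists held 40487 to 85142, and 179137 and 181357 for H3K4me1, where the shHNRNPU lists held 147145 to 214333. The FGF genes gave values that bear on the same point. Within 1 kb of the listed FGF2 start, all 4 shHNRNPU H3K27ac libraries had a summit (percentiles 83.6 to 95.7) and none of the 4 shHNRNPU H3K4me1 libraries had one. The shLUC pair named H3K27ac by file had summits there at 84.9 and 94.4, and the pair named H3K4me1 had none.

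As a list the 10 genes stood above the median gene, while single genes ranged widely in H3K27ac, POLIIS2P and HNRNPU. Mean levels ran from 58.8 (SPRED2) to 99.8 (FGF2) in POLIIS2P and from 50.2 (SPRED2) to 99.0 (ETV5) in HNRNPU. Longer windows can hold more summits, and the windows of these genes were 45.2 to 165 kb long. The part of window length in the levels was not tested. The median over the genes of the mean level was 90.9 for H3K27ac, against 75.2 over all protein-coding genes, and 96.1 against 86.7 for H3K4me1. It was 92.7 against 86.4 for POLIIS2P and 79.3 against 74.0 for HNRNPU. Summits were also denser, at a median of 2.00 H3K4me1 summits per 10 kb of window against 0.825 over all genes, and 0.543 against 0.363 for H3K27ac. None of the 10 genes lacked a summit in any of the 17 libraries. The share of all protein-coding genes with this property is not given here, so it was not read as a trait of the list. The levels of the 4 antibodies by gene and library are shown in the plot of strongest summits.

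**Figure D1:**
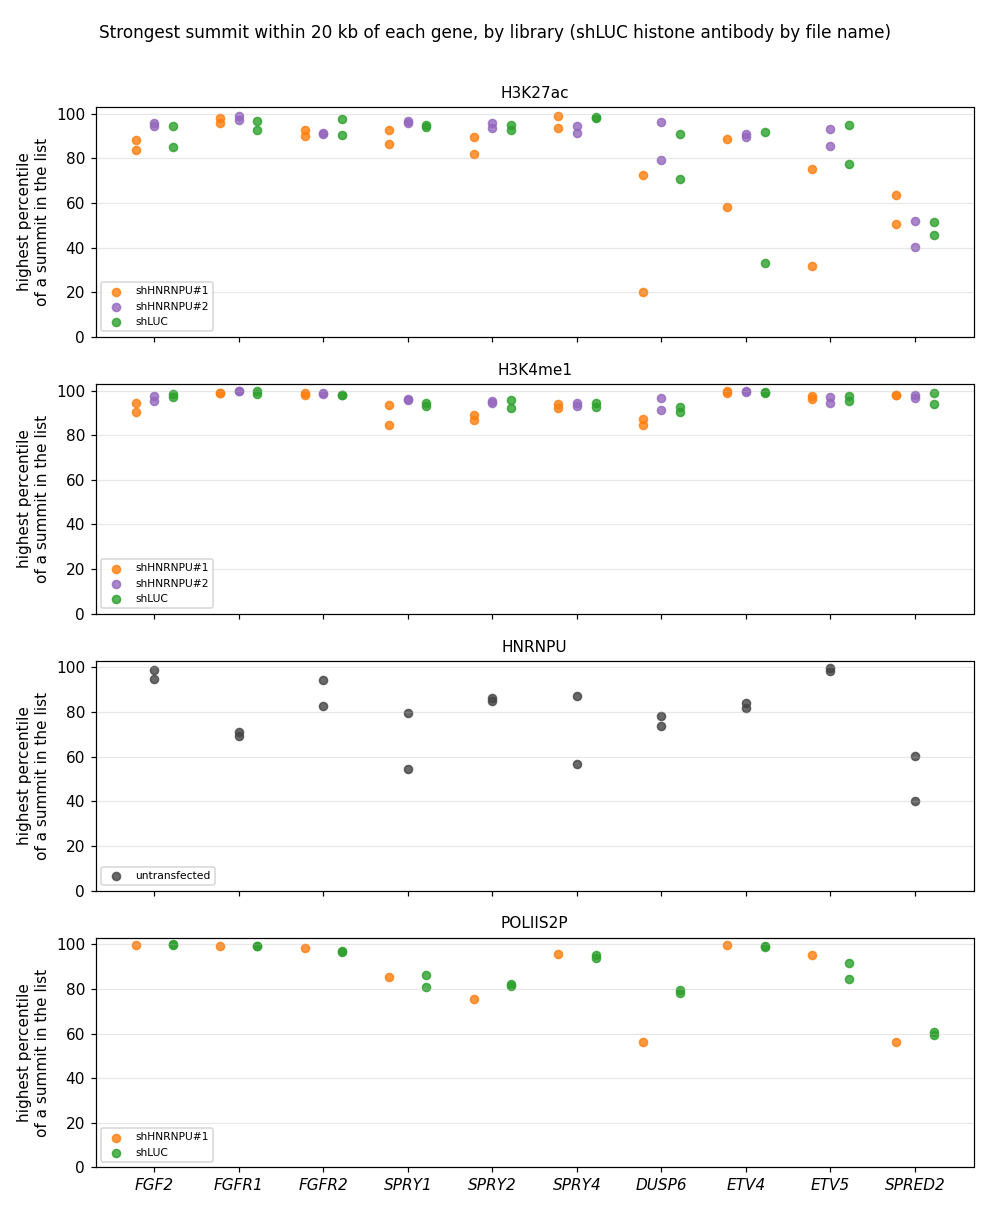
Highest percentile of any summit within 20 kb of each gene (y axis, 0 to 100) for the 10 genes (x axis), with 1 panel per antibody and 1 point per library, coloured by hairpin. H3K4me1 levels lie above 84 in every library, whereas H3K27ac levels of DUSP6, ETV4 and ETV5 range from 20.0 to 96.2 and those of SPRED2 lie between 40.1 and 63.6.

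By mean H3K27ac level the genes ranked FGFR1 (96.7 ± 2.25, SD, n = 6 libraries), SPRY4 (95.7 ± 3.22), SPRY1 (93.5 ± 3.78), FGFR2 (92.1 ± 2.96), SPRY2 (91.5 ± 5.11), FGF2 (90.2 ± 5.38), ETV5 (76.4 ± 23.3), ETV4 (75.4 ± 24.3), DUSP6 (71.6 ± 27.2) and SPRED2 (50.5 ± 7.78). The ranges of all neighbours in this order overlapped. FGFR1 lay above 90.9% of protein-coding genes, ETV5 above 51.5%, ETV4 above 50.2%, DUSP6 above 45.7% and SPRED2 above 28.9%. For POLIIS2P the order was FGF2, FGFR1, ETV4, FGFR2, SPRY4, ETV5, SPRY1, SPRY2, DUSP6 and SPRED2. Here the ranges of FGF2 and FGFR1, of ETV4 and FGFR2 and of FGFR2 and SPRY4 did not overlap. The strongest POLIIS2P sites of the FGF2 and FGFR1 windows lay inside NUDT6 and LETM2. That of ETV4 lay in a stretch shared with DHX8, so these ranks are of windows and cannot be assigned to the genes.

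Whether knockdown of HNRNPU went with a change at these genes was asked first. No gene of the 10 had H3K27ac levels that were all higher or all lower in the 4 shHNRNPU libraries than in the 2 shLUC libraries. Over all protein-coding genes tested, 2.08% were higher and 11.3% lower by this criterion. H3K4me1 gave 0 genes higher and 0 lower as well, beside 7.11% and 8.19% of all genes. The smallest 2-sided exact permutation p over the genes was 0.2 for either mark (Benjamini-Hochberg adjusted over all genes, 0.997 for H3K27ac and 0.937 for H3K4me1), and with 4 libraries against 2 no p can fall under 0.0667. The median difference, shHNRNPU minus shLUC, was -2.25 percentile points for H3K27ac, where all genes had -3.20, and -0.05 for H3K4me1, where all genes had -0.23. With the shLUC antibodies as titled, 5 genes were lower in H3K27ac (FGF2, FGFR2, ETV4, ETV5 and SPRED2, background 44.4%) and 0 higher (15.3%), and for H3K4me1 4 were higher (FGFR1, FGFR2, ETV4 and SPRED2, 40.2%) and 1, SPRY4, was lower (22.3%).

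The 2 hairpins were also set side by side against the shLUC libraries that they share. For H3K27ac, shHNRNPU#1 had a lower mean than shLUC at 7 of the 10 genes (76.9% of all genes) and shHNRNPU#2 at 3 (48.8%). For H3K4me1 the counts were 6 (60.8%) and 2 (42.4%). The H3K27ac lists of shHNRNPU#1 were shorter than those of the other hairpin, with 51655 and 40487 summits against 75264 and 85142, and the part of list length in these differences was not tested. The plot of hairpin differences gives the values.

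**Figure D2:**
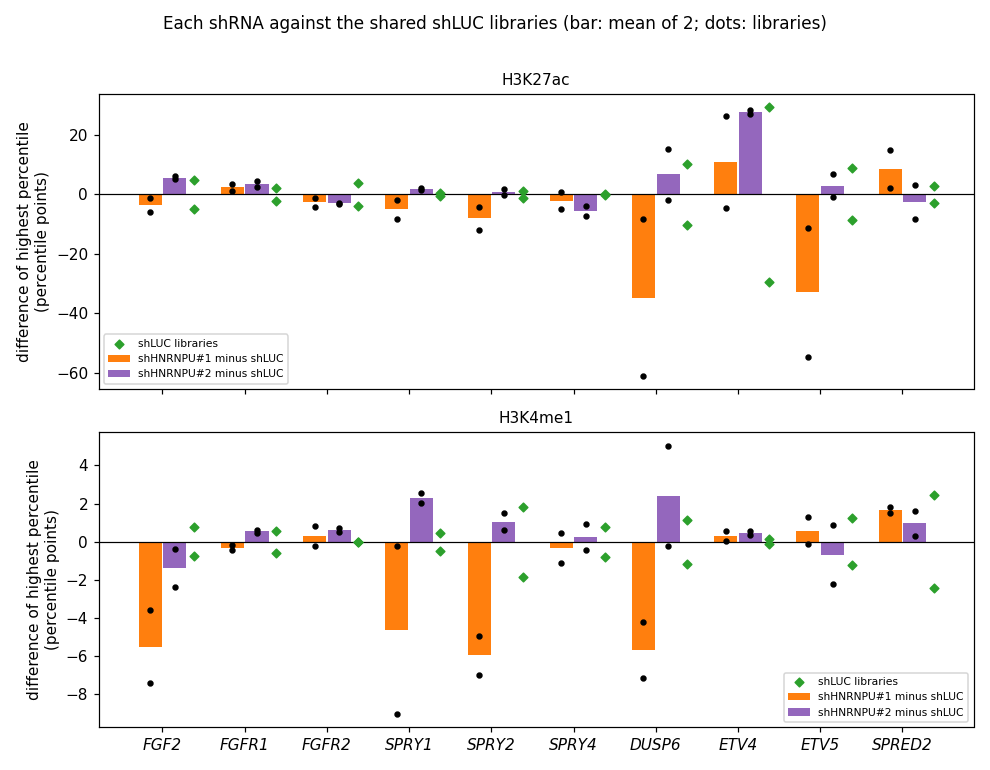
Difference of highest percentile from the mean of the 2 shLUC libraries (y axis, percentile points) for each gene (x axis), for H3K27ac (upper panel) and H3K4me1 (lower panel). Bars are means of 2 libraries per hairpin, black dots are single libraries and green diamonds the shLUC libraries; the H3K27ac differences of shHNRNPU#1 reach -34.7 at DUSP6 and -32.9 at ETV5, where those of shHNRNPU#2 are 6.76 and 2.91.

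FGF2 (chr4:122826682-122898236, GRCh38) encodes basic FGF, the ligand. Its strongest H3K27ac site lay 0.619 kb downstream of the listed start at chr4:122827450. The percentiles were 88.3 and 83.6 for shHNRNPU#1, 94.7 and 95.7 for shHNRNPU#2, and 84.9 and 94.4 for shLUC, so the groups overlapped (90.6 ± 5.72, SD, n = 4, against 89.6 ± 6.72, n = 2, exact permutation p = 0.8). H3K4me1 was absent within 1 kb of this start in all 6 libraries and peaked 7.40 kb downstream instead. There the libraries gave 90.5, 94.3, 95.5 and 97.6 with shHNRNPU and 98.7 and 97.2 with shLUC, which again overlapped. Of the 6 H3K4me1 sites of FGF2 found in all 6 libraries, 1 was higher (6.85% of all such sites) and 2 lower (8.44%) with shHNRNPU. Among them, named after their values had been seen, were sites 4.12 kb (17.4 percentile points) and 34.9 kb (-12.8) downstream of the start.

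Farther into FGF2, weaker H3K27ac sites did separate the groups; they were chosen for mention after their values had been seen. At chr4:122880902, 54.1 kb downstream of the start and inside the gene, the percentiles were 68.7 and 4.09 for shHNRNPU#1, 17.6 and 34.2 for shHNRNPU#2, and 82.7 and 84.4 for shLUC. All 4 knockdown libraries were lower than both controls (31.2 ± 27.9, SD, n = 4, against 83.5 ± 1.20, n = 2, exact permutation p = 0.133, unadjusted). A similar separation was seen 1.57 kb downstream of the start, where shHNRNPU gave no summit, 37.6, 39.2 and 21.9 and shLUC gave 74.1 and 90.2 (exact permutation p = 0.0667, unadjusted, the smallest the design allows). No HNRNPU site lay within 500 bp of the 1.57 kb site. Within 500 bp of the 54.1 kb site lay an HNRNPU site with percentiles of 69.9 and 85.5 in the HNRNPU libraries. POLIIS2P at the same place was 92.7 in the shHNRNPU#1 library and 97.0 and 97.1 with shLUC.

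The strongest POLIIS2P site of the FGF2 window lay 1.68 kb beyond the gene's higher-coordinate end at chr4:122899915, inside the neighbouring gene NUDT6. It was among the highest summits of each list, with 99.7 in the shHNRNPU#1 library and 99.9 in both shLUC libraries. An HNRNPU site lay 1727 bases beyond the gene end, with percentiles of 94.9 and 98.8. Because NUDT6 covers this position, the signal cannot be assigned to FGF2.

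FGFR1 (chr8:38411143-38468635) encodes an FGF receptor tyrosine kinase. A single region 28.2 kb from the lower-coordinate end of the gene, inside it, was strongest for both histone marks, with 35 bases between the H3K27ac and H3K4me1 sites. H3K27ac stood at 98.3, 96.0, 99.2 and 97.3 with shHNRNPU and 92.7 and 96.8 with shLUC. H3K4me1 stood at 99.0, 98.8, 99.8 and 99.7 with shHNRNPU and 98.6 and 99.8 with shLUC. Neither mark separated the groups there. An HNRNPU site, with percentiles of 70.9 and 57.3, lay 31.4 kb from the same end, and H3K27ac and H3K4me1 summits lay within 500 bp of it in all 12 histone libraries. POLIIS2P was strongest outside the gene, inside LETM2 (99.3 with shHNRNPU#1, 99.4 and 99.4 with shLUC).

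FGFR2 (chr10:121478330-121598458) encodes another FGF receptor and has 5 listed starts. Its strongest sites for H3K27ac, H3K4me1 and POLIIS2P lay within 68 bases of each other near chr10:121580449, inside the gene and 13.5 kb downstream of the nearest listed start. H3K27ac gave 92.8, 83.7, 91.3 and 90.7 with shHNRNPU and 90.3 and 97.8 with shLUC. For H3K4me1 the shHNRNPU libraries (98.9, 97.8, 98.8 and 98.1) all lay above the shLUC libraries (96.5 and 97.4), a difference of 1.42 percentile points (exact permutation p = 0.0667, unadjusted). An HNRNPU site was found at this place (87.8 and 56.2), another at 75.6 kb from the lower-coordinate end (36.0 and 51.4), and the strongest of the gene 123 bases downstream of a listed start (94.3 and 82.7). At all 3, H3K27ac was present within 500 bp in 6 of 6 libraries.

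The Sprouty genes encode inhibitors that ERK signalling induces. At SPRY1 (chr4:123396795-123403760) the strong histone sites flanked the gene. H3K27ac was strongest 20.2 kb downstream of the nearest listed start, with 86.3, 88.7, 96.8 and 95.9 for shHNRNPU and 83.9 and 95.0 for shLUC. The other flank, at -17.8 kb, had no H3K27ac summit in shHNRNPU#1 replicate 1 and 92.7, 95.2, 93.7, 94.2 and 90.9 in the other libraries. H3K4me1 peaked on the same flank, at -17.7 kb, between 83.5 and 96.4 in all 6 libraries. An HNRNPU site with percentiles of 49.3 and 79.7 lay there as well. POLIIS2P was strongest 0.273 kb downstream of a listed start (85.3 with shHNRNPU#1, 86.4 and 80.7 with shLUC).

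SPRY2 (chr13:80335976-80341126, minus strand) had its strongest H3K27ac site just before its outermost start, at 0.161 kb beyond the gene end. Percentiles were 89.6 and 63.7 for shHNRNPU#1, 93.6 and 95.8 for shHNRNPU#2, and 95.1 and 92.8 for shLUC. Both shHNRNPU#1 libraries lay under the control range and both shHNRNPU#2 libraries did not, so the groups overlapped. HNRNPU had summits at the same promoter, 213 and 231 bases upstream of the start (86.3 and 85.0), and H3K4me1 was not found within 500 bp of this HNRNPU site in any of 6 libraries. H3K4me1 instead peaked 2.19 kb downstream of the nearest listed start, with 86.9, 84.2, 95.4 and 94.5 for shHNRNPU and 91.7 and 95.7 for shLUC. DUSP6, which encodes the phosphatase of ERK, was the other gene with a listed start and an HNRNPU summit of both replicates in the 250 bases before its outermost start. These 2 promoter sequences are shown because they hold HNRNPU summits; they are from RefSeq (GRCh38.p14), 5′ to 3′ on the minus strand, for chr13:80341127-80341376 and chr12:89352502-89352751, with the 21 bases around each HNRNPU summit in capitals.
SPRY2: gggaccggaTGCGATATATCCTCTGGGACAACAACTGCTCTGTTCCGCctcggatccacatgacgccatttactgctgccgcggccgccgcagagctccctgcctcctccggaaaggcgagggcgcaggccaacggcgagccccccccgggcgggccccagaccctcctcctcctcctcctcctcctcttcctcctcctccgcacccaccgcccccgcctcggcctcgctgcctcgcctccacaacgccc
DUSP6: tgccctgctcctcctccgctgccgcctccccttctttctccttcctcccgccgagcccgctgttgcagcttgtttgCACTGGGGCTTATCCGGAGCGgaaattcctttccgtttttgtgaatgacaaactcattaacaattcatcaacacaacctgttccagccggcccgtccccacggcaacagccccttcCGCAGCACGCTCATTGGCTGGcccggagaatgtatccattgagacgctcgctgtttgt
In SPRY2 the capitals of the replicates, whose summits were 18 bases apart, join into 1 stretch, and in DUSP6 they form separate stretches around summits 48 and 164 bases upstream. GC content of the 250 bases was 70.4% for SPRY2 and 57.2% for DUSP6, against a median of 62% over all listed promoters. The motifs TGAATGAA and TGAATGGA, bound by the repressor CIC, the ETS motif CCGGAAGT, the octamer ATTTGCAT and the SOX motif CATTGTT were searched on both strands of the 250 bases before each of the 15 listed starts of the FGF and ERK genes, and 0 matches of any were found. The shares of all 22199 promoters with a match were 1.26%, 0.703%, 4.41%, 1.59% and 2.09%.

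SPRY4 (chr5:142310430-142325021, minus strand) had its strongest H3K27ac site 1.51 kb beyond its higher-coordinate end, upstream of the listed start and inside the antisense gene SPRY4-AS1. The libraries gave 93.4 and 98.9 for shHNRNPU#1, 91.2 and 94.3 for shHNRNPU#2, and 98.5 and 98.0 for shLUC. Of the shHNRNPU libraries 3 were under both controls and 1 was above them. No H3K27ac or H3K4me1 summit lay within 1 kb of the listed start in any library. Its HNRNPU site was 1295 bases beyond the gene end, with percentiles of 56.7 and 87.0. POLIIS2P was strongest 0.469 kb from the lower-coordinate end (94.0 with shHNRNPU#1, 91.7 and 95.2 with shLUC).

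DUSP6 (chr12:89347235-89352501, minus strand) overlaps the listed read-through gene POC1B-DUSP6 over all but its lower-coordinate end and had few histone summits, 1 or 2 of H3K27ac per library. Its strongest H3K27ac site lay 1.22 kb beyond the higher-coordinate end, upstream of the start. Values were 72.5 and 20.0 for shHNRNPU#1, 79.1 and 96.2 for shHNRNPU#2, and 63.8 and 91.1 for shLUC, and the groups overlapped.

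Within 1 kb of the DUSP6 start the H3K27ac groups did not overlap. The percentiles were 10.7 and 20.0 for shHNRNPU#1, 61.6 and 51.3 for shHNRNPU#2, and 70.7 and 71.7 for shLUC. The 20.0 of shHNRNPU#1 replicate 2 is the summit of the upstream site already given. At the site 0.473 kb downstream of the start, which gave the other values, that library had no summit. The mean was 35.9 ± 24.4 (SD, n = 4) with knockdown and 71.2 ± 0.70 (n = 2) with shLUC (exact permutation p = 0.133, adjusted p = 0.915). It was the only one of the 6 FGF and ERK genes with an H3K27ac summit near a listed start to be lower by this criterion, and over all genes with such a start 11.8% were lower. None of the 6 was higher (0.774% of all genes). H3K4me1 near listed starts could be compared at 5 of the genes, with 0 higher (5.15% of all genes) and 0 lower (5.42%). With the titles' antibodies, 4 of 6 genes were higher (21.4%) and 0 lower (30.4%) in H3K27ac near the start, and 0 higher (23.4%) and 4 lower (31.6%) in H3K4me1, each time FGF2, FGFR2, SPRY2 and DUSP6. POLIIS2P at DUSP6 was strongest 0.457 kb inside the lower-coordinate end, a position in no other listed gene, with 56.3 for shHNRNPU#1 against 79.7 and 78.2 for shLUC.

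SPRED2 (chr2:65307175-65432599, minus strand) encodes a membrane-associated inhibitor of the RAS to RAF step. It combined strong H3K4me1 with weak H3K27ac. H3K4me1 was strongest 46.1 kb from the lower-coordinate end, inside the gene, with 97.2, 97.9, 98.0 and 96.7 for shHNRNPU and 98.8 and 93.9 for shLUC. In each of the 6 libraries the window held 22 to 36 H3K4me1 summits. H3K27ac had 1 to 5 summits per library, with a highest percentile of 63.6, 50.7, 40.1 and 51.7 for shHNRNPU and 51.4 and 45.8 for shLUC. No H3K27ac site of this gene was found in more than 2 of the 6 libraries, while 14 of 46 H3K4me1 sites were present in all 6. The HNRNPU site of the gene sat 12 bases inside its listed start, with percentiles of 60.2 and 39.0, and no histone summit lay within 500 bp of it in any of the 12 histone libraries.

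ETV4 (chr17:43527846-43546340) overlaps the listed gene DHX8, so signal in the shared stretch cannot be assigned to either. One place in that stretch, 3.18 kb from the lower-coordinate end, was strongest for H3K27ac, H3K4me1 and POLIIS2P, with at most 68 bases between them. H3K4me1 reached 99.1, 99.7, 99.7 and 99.4 with shHNRNPU and 99.2 and 99.0 with shLUC. POLIIS2P reached 99.6 with shHNRNPU#1 and 99.1 and 99.0 with shLUC. H3K27ac was called in 4 of 6 libraries, at 88.8, 90.8 and 89.5 in all shHNRNPU libraries but shHNRNPU#1 replicate 1 and at 91.9 in shLUC replicate 2. An HNRNPU site lay at the same place (81.6 and 83.9).

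ETV5 (chr3:186046314-186109089) had the highest mean HNRNPU level of the 10 genes, although FGF2 was higher in replicate 2 (98.8). The summit lay 143 bases beyond the higher-coordinate end at chr3:186109232, and the replicates (99.6 and 98.3) were 1 base apart. The H3K27ac and POLIIS2P sites of highest mean percentile were at this end too, although the strongest H3K27ac summit lay elsewhere in shHNRNPU#2 replicate 1 (93.2), shHNRNPU#2 replicate 2 (85.4) and shLUC replicate 1 (77.7), and the strongest POLIIS2P summit in shLUC replicate 1 (91.8). At the gene end H3K27ac varied widely, with 75.2 and 31.8 for shHNRNPU#1, 86.4 and 9.78 for shHNRNPU#2, and 49.5 and 95.1 for shLUC, and the groups overlapped. POLIIS2P gave 95.1 with shHNRNPU#1 and 88.8 and 84.6 with shLUC. Inside the gene, 33.7 kb from the lower-coordinate end and overlapping ETV5-AS1, an H3K27ac site mentioned after its values had been seen had no summit in any of the 4 shHNRNPU libraries and stood at 77.7 and 63.6 with shLUC (exact permutation p = 0.0667, unadjusted). An HNRNPU site with percentiles of 48.3 and 65.5 lay there. H3K4me1 was present within 500 bp of it in all 6 libraries.

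**Figure D3:**
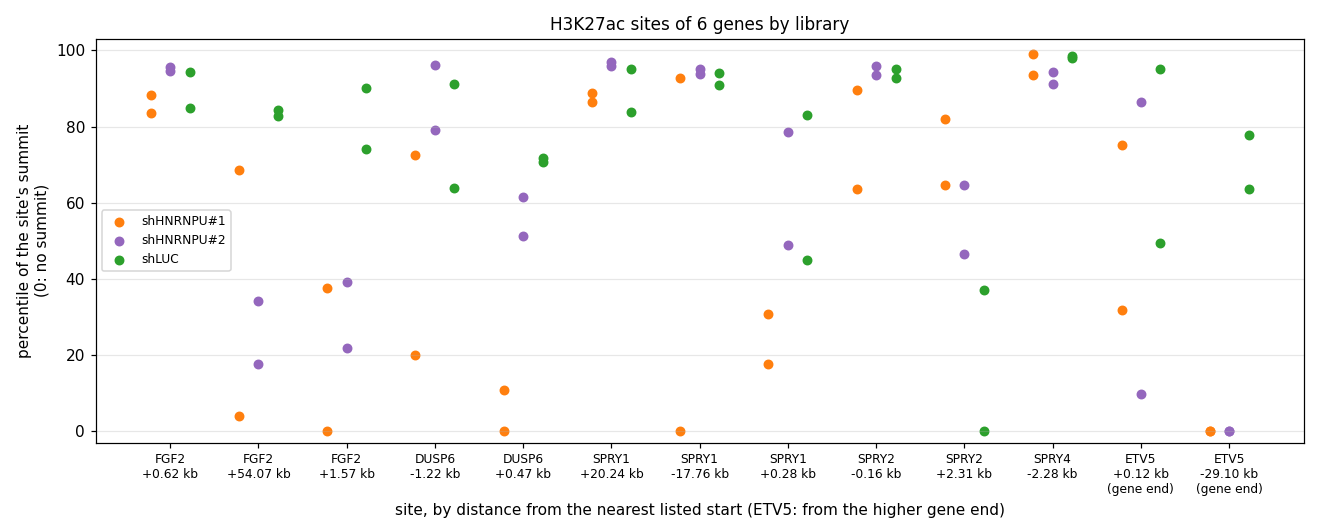
Percentile of the H3K27ac summit (y axis, 0 where there is none) at 13 sites of FGF2, DUSP6, SPRY1, SPRY2, SPRY4 and ETV5 (x axis, by distance in kb), 1 point per library coloured by hairpin. shHNRNPU is lower than shLUC in all libraries at 1.57 kb and 54.1 kb in FGF2, at 0.473 kb in DUSP6 and at -29.1 kb in ETV5 and higher at 2.31 kb in SPRY2, and the groups overlap at the other sites shown. The sites were picked with their values known, and FGFR1, FGFR2, ETV4 and SPRED2 are not shown. In the windows of the 10 genes the groups were apart at 7 of 113 H3K27ac sites.

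HNRNPU sites, defined as a summit of replicate 1 with a summit of replicate 2 within 250 bp, numbered 18 in the windows of the FGF and ERK genes. All 10 genes had at least 1, as had 70% of protein-coding genes. Within 1 kb of a listed start, FGFR2, SPRY2, DUSP6 and SPRED2 had a site, 4 of the 7 genes with a listed start, against 45.3% of all such genes. Within 1 kb of either gene end 5 of 10 had one (SPRY2, DUSP6, ETV4, ETV5 and SPRED2), against 41.1%. Of the 18 sites, 10 had an H3K27ac summit within 500 bp in all 6 libraries, 11 had H3K4me1 in all 6 and 12 had POLIIS2P in all 3. Over the 17226 HNRNPU sites of the genome, 32.8% had H3K27ac, 66.0% H3K4me1 and 64.2% POLIIS2P in every library of the antibody. The map of recurrent sites places them along each gene.

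**Figure D4:**
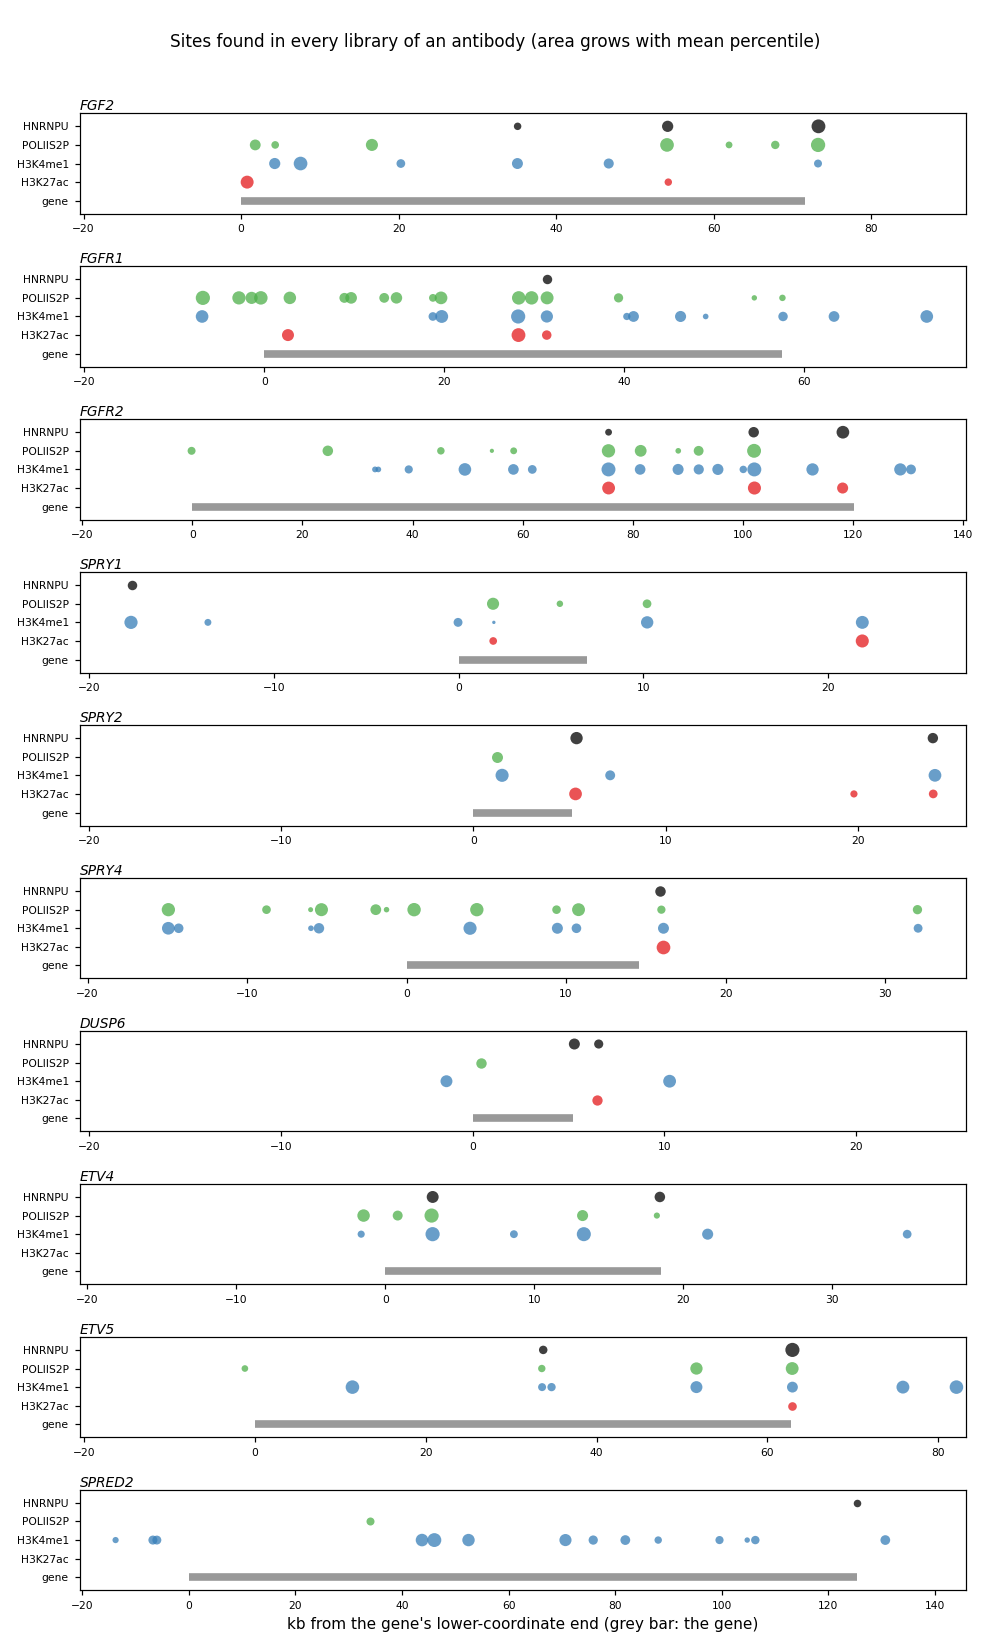
Positions of sites found in every library of an antibody, in kb from the lower-coordinate end of each gene (x axis, 1 panel per gene, grey bar for the gene), in 4 rows by antibody, with point area growing with the mean percentile. HNRNPU sites coincide with H3K27ac, H3K4me1 and POLIIS2P sites at 75.6 kb and 102 kb in FGFR2, and at ETV4 and SPRED2 no H3K27ac site is found in all 6 libraries.

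Joining summits of an antibody within 250 bp into sites gave 113 H3K27ac sites in these windows, of which 16 were found in all 6 libraries (14.2%, against 7.66% of all sites). Of these 16, 0 were higher in shHNRNPU in all libraries (3.76% of all such sites) and 1, the 54.1 kb site of FGF2, was lower (11% of all such sites). With absence counted as 0, the groups were apart at 7 of the 113 sites. Of these 5 were lower in shHNRNPU (5.42% of all H3K27ac sites), namely those at 0.473 kb in DUSP6, at 1.57 kb and 54.1 kb in FGF2, at 33.7 kb in ETV5 and a weak one in the ETV4 window. The 2 that were higher (0.741%) lay 2.31 kb downstream of the nearest SPRY2 start, with 64.6, 82.0, 64.6 and 46.5 for shHNRNPU and no summit and 37.0 for shLUC, and in the FGFR2 window, 71.9 kb from the nearest start, with 38.3, 47.6, 62.6 and 33.2 for shHNRNPU and no summit for shLUC. Of these 7 sites, those at 54.1 kb in FGF2 and at 33.7 kb in ETV5 had an HNRNPU site within 500 bp. The others had none. Among the 16 H3K27ac sites found in all 6 libraries, 10 had one. H3K4me1 gave 277 sites with 81 in all 6 libraries (29.2% against 25.4%), of which 7 were higher (6.85%) and 9 lower (8.44%). POLIIS2P gave 184 sites with 61 in all 3 libraries (33.2% against 26.7%). Counting only the 20000 strongest summits of each library, 1 of 48 H3K27ac sites was found in both shLUC libraries and no shHNRNPU library (1.56% of all sites). It was at chr4:122828420 in FGF2, the site 1.57 kb from the start, and 3 of the 4 shHNRNPU libraries held a weaker summit there. No H3K27ac site was gained (0.486%), and of 34 H3K4me1 sites 0 were lost (1.61%) and 0 gained (0.923%). As titled, 7 of 56 H3K27ac sites were lost (14%) and 3 gained (6.68%), and 7 of 52 H3K4me1 sites were lost (13.4%) and 6 gained (12.7%).

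POLIIS2P levels, with 1 knockdown library, have no test. FGFR2, SPRY4, ETV4 and ETV5 were above both shLUC libraries and FGF2, FGFR1, SPRY2, DUSP6 and SPRED2 below both, which is 4 and 5 of 10 where 32.1% and 39.5% of all genes lay above and below. The differences were small at most of them, such as -0.24 percentile points at FGF2 and 0.58 at ETV4. The largest were -22.5 points at DUSP6, 6.86 at ETV5 and -6.31 at SPRY2. At these genes the highest summit did not lie at the same place in every library. Within 1 kb of a listed start, DUSP6 stood at 56.4 with shHNRNPU#1 and had no summit with shLUC. SPRY2 stood at 75.5 there, against 68.4 and 35.9 with shLUC, so both were higher near the start. FGFR2 was lower there, with 55.1 against 72.9 and 83.3.

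A list of 40 other genes of the pathway, from ligands to transcription factors, was examined in the same windows. In H3K27ac 0 were higher (2.08% of all genes) and 4 lower (11.3%) with shHNRNPU, and in H3K4me1 3 were higher (7.11%) and 3 lower (8.19%), which is near the share over all genes. As titled, 5 were higher (15.3%) and 19 lower (44.4%) in H3K27ac and 16 higher (40.2%) and 5 lower (22.3%) in H3K4me1. Those with the largest differences are given as values. The window of ELK1, an ETS factor that ERK phosphorylates, was lower in both marks. The differences were -18.6 percentile points in H3K27ac and -9.11 in H3K4me1 (exact permutation p = 0.133 for both). This window also holds SYN1, CFP, UXT and UXT-AS1. Within 1 kb of the ELK1 start the H3K27ac groups overlapped, with means of 63.5 for shHNRNPU and 63.4 for shLUC. The repressor gene CIC differed by -7.35 points and the receptor adaptor gene FRS2 by -4.47 points in H3K27ac (exact permutation p = 0.4 and 0.133). Near the listed starts of CIC and FRS2 the H3K27ac groups overlapped too. SOS1, also lower in the window, was lower near its starts as well (means of 95.4 with shHNRNPU and 97.9 with shLUC). GRB2, whose groups overlapped in the window, had means of 3.50 with shHNRNPU and 82.4 with shLUC near its start (exact permutation p = 0.0667, unadjusted). In H3K4me1 the ERK phosphatase gene DUSP4 differed by 3.89 points and the early response gene EGR1 by -3.21 (exact permutation p = 0.133 for both). Benjamini-Hochberg adjusted p was 0.997 for ELK1, CIC and FRS2 in H3K27ac and 0.919 for ELK1, DUSP4 and EGR1 in H3K4me1. With 4 libraries against 2 no p, adjusted or not, can fall under 0.0667. As titled the groups overlapped for FRS2 in H3K27ac and for ELK1 and EGR1 in H3K4me1. Within 1 kb of a listed start, 0 of 21 of these genes were higher (0.774% of all genes) and 4 lower (11.8%) in H3K27ac. The 4 were GRB2, SOS1, ARAF and NF1, named after their values had been seen. In H3K4me1 1 of 24 was higher (5.15%) and 0 lower (5.42%). As titled, 4 of 22 were higher (21.4%) and 6 lower (30.4%) in H3K27ac. For H3K4me1 it was 4 of 25 (23.4%) and 6 (31.6%). HNRNPU sites were found in the windows of 29 of these 40 genes, where 70% of all protein-coding genes had one.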

How the data were processed

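Cells were H1 human embryonic stem cells, profiled by CUT&Tag in 17 libraries with 4 antibodies. The submitters' processing notes name cutadapt, Bowtie2, SAMtools, MACS2, deepTools and build hg38, with no versions. The authors deposited a summit list per library, and its score was read as −log10 of a p-value or q-value from the layout of the lists and from lowest scores, which correspond to 0.01 for the histone marks (12 libraries) and 0.05 for the 5 others; which of the 2 it is, the settings and read depths are not given in the sources used here. A series-wide interval list deposited by the authors (400 bp intervals, all with a score of 0) served as an alternative for HNRNPU sites. The paper listed with the series concerns other cells, and its methods were not used.

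Genes and promoters came from RefSeq tables (GRCh38.p14). All 10 FGF and ERK genes were matched, 7 with a listed start; for FGFR1, ETV4 and ETV5 distances are from gene ends. Starts were listed for 15843 protein-coding genes. Exons and introns were not distinguished. Summits were ranked within each list, windows reached 20 kb beyond the gene, and a gene with no summit was set to 0. Groups were compared by a 2-sided exact permutation test over 15 assignments, adjusted by Benjamini-Hochberg over all protein-coding genes with a summit in any of the 6 libraries, and a call meant groups that do not overlap. Sites were chained at 250 bp. Nothing in the labels says that replicates came from separate cultures, so p-values measure the spread between these libraries, which may be technical; 2.15% to 8.7% of summits fell on the same base in both replicates of a group, so replicates were counted as separate samples. The number of libraries and unknown depth limit precision. Deviations of libraries with the same replicate number were not correlated between groups (correlations from -0.03 to 0.03). This cannot exclude a culture or batch that they share. The genes, lists, motifs and tests were chosen with earlier results of these data known. All 10 genes are named, with the 3 genes of largest difference per histone mark among those of the pathway list whose groups did not overlap, and the strongest site per gene and antibody; exceptions are marked in the text. Alternatives were other windows, a score minimum of 10, log2 of the rank, each hairpin alone, other site definitions, leaving out each library, a replicate block and the titles' antibodies. Python 3.11.15 with numpy 2.4.6, pandas 2.3.3, scipy 1.17.1 and matplotlib 3.10.9 was used, and the comparison was tested on simulated data.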

Additional observations from a re-analysis of the deposited data

Results flagged for a closer look

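ETV4 H3K27ac in shHNRNPU#1 replicate 1 stood at 58.0, apart from the other shHNRNPU libraries (88.8, 90.8 and 89.5): the gap to the nearest was 0.938 of the group's range, over Dixon's critical value for 4 samples. Among 20 groups examined, chance alone flags about 1. In shLUC the ETV4 level was as uneven, at 33.3 and 91.9.

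SPRY1 H3K27ac percentiles lay on opposite sides of shLUC for the 2 hairpins. Both shHNRNPU#1 libraries (86.3 and 92.7) were under both shLUC libraries (94.2 and 95.0) and both shHNRNPU#2 libraries (96.8 and 95.9) were above them, a difference between hairpins of -6.84 percentile points that was not tested. The pattern did not hold by rank from the top of the list, where shHNRNPU#1 replicate 2 (rank 2950) was ahead of both shLUC libraries (ranks 3651 and 4579) and shHNRNPU#1 replicate 1 (7067) behind them. The strongest summits also lay at different sites of the window, at -17.8 kb in shHNRNPU#1 replicate 2 and shLUC replicate 1 and at 20.2 kb in the other libraries, both from the nearest listed start.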

How the results depend on the processing

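The counts of genes with separated groups were small and changed with single choices, and causes were not tested. Among the alternatives, shares over all genes or sites are given above only for listed starts and for the titles. The other counts in this section have no such share beside them. Groups of fewer libraries separate more readily, so those counts were not read as effects of a hairpin or library. For H3K27ac, lower counts were 1 within 1 kb of a start, 5 as titled, 3 with shHNRNPU#1 alone and 1 with shHNRNPU#2 alone, and higher counts were 1 by log2 rank and 3 with shHNRNPU#2 alone. For H3K4me1, higher counts were 2 by log2 rank, 4 as titled and 3 with shHNRNPU#2 alone, and lower counts were 1 by log2 rank, 1 as titled and 3 with shHNRNPU#1 alone. Leaving out 1 library gave 0 to 2 higher and 0 to 3 lower for H3K27ac, the most lower (3) without shLUC replicate 1 and the most higher (2) without shLUC replicate 2, with 1 of each without shHNRNPU#1 replicate 2. It gave 0 to 2 higher and 0 to 2 lower for H3K4me1, with 2 higher and 1 lower without shLUC replicate 1, 1 higher and 2 lower without shLUC replicate 2, 1 higher without either shHNRNPU#1 library and 1 lower without shHNRNPU#2 replicate 2.

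With a replicate block all 4 counts stayed at 0, and the smallest blocked p possible was 0.111. Whether libraries of the same replicate number share a culture or batch is not known. With a score minimum of 10, POLIIS2P was below both controls at 3 genes, and HNRNPU sites were found in the windows of 4 genes and at the starts of 2; with replicates within 100 bp, 2 genes had a site at a start. Lost H3K27ac sites numbered 7 as titled, 0 among the 10000 strongest summits and 1 to 3 without 1 library (2 without either shHNRNPU#1 library, 3 without either shLUC library), and gained ones 3 as titled and 1 with all summits. Lost H3K4me1 sites were 7 as titled, 2 with all summits and 0 to 1 without 1 library (1 without shHNRNPU#1 replicate 2), and gained ones 6 as titled and 0 to 1 without 1 library (1 without shHNRNPU#2 replicate 2 or shLUC replicate 1). Of 270 differences of single genes under alternatives, 226 moved by less than the spread between libraries and 44 by more. The sign reversed for 9 of 20 differences with shHNRNPU#2 alone, 8 of 20 as titled and 3 of 11 within 1 kb of a start. Under the other settings it reversed for 0 (replicate block) to 4 (without shHNRNPU#1 replicate 1 or shLUC replicate 1) of 19 or 20.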
